A study of Homo sapiens with 32 samples.

Results

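RNA of TET21 cells was compared between a MYC that lacks box 0 and a MYC that lacks box II. TET21 (SH-EP/TET21/N) is a human neuroblastoma line made from SH-EP cells, with a MYCN transgene that doxycycline switches off. The 8 libraries are 4 of the group labelled d0x and 4 of the group labelled d2, out of 32 libraries in 8 groups of the series. All groups were given doxycycline at 1 µg/mL for 7 days, per the labels' protocol, and each expresses a different construct: d0x and d2 carry the deletion mutants labelled MYC 0x and MYC 2, WT carries full-length MYC and EV the empty vector. That 0x and 2 stand for MYC box 0 and MYC box II was inferred from the label names. How much MYC protein each group made was not used here, and the labels do not say whether the numbered libraries of a group came from separate cultures.

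MYC is a transcription factor that pairs with MAX, binds E-box DNA (its preferred core is CACGTG) and drives genes for ribosomes, mitochondria, nucleotides and cell division. Along the protein lie short conserved segments, the MYC boxes, through which it contacts other proteins. Box II is the docking site for TRRAP, the scaffold of histone acetyltransferase complexes, and is known to be needed for transformation of cells. Box 0 lies closer to the N terminus, within the transactivation domain. The comparison asks which genes tell these deletions apart.

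No direct comparison of d0x with d2 was used here. For each gene, the log2 fold of d2 against WT in the authors' deposited table was subtracted from that of d0x against WT, so that the shared WT libraries drop out and a positive difference means more RNA in d0x than in d2. The deposited folds are posterior estimates, pulled in by a model, so the WT term cancels only in part, by an amount that is not known. Both folds were given for 36819 of 58317 genes, 16139 of them protein coding. With no values per library there is no SD, no test and no p for the difference, and it is given as a description. A gene is said to have risen, fallen or been called in d0x, d2 or WT where the authors' posterior probability of differential expression is at least 0.95, their threshold for a false discovery rate of 0.05.

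The targeted gene was not told apart by this measure. MYC stood at a log2 fold of 0.57 in d0x and 0.68 in d2 against WT in the authors' deposited table, with posterior probabilities of 0.0950 and 0.0486, and a difference of -0.11. In WT against EV MYC was not called either, at 0.98 with a posterior probability of 0.348 in the authors' deposited table. A missing call of MYC therefore says little about the mutants. Reads of the whole gene include the cells' own MYC and do not show the deletions. MYCN, whose transgene doxycycline switches off, stood at 0.19 in d0x and 0.31 in d2 in the authors' deposited table and was called in neither. Bulk RNA cannot tell fewer cells of a kind from less RNA per cell, and levels were not used here, so the defining markers of the line were not checked.

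Called genes were fewer in d0x than in d2. Against WT, 130 genes rose in d0x (0.353% of those measured) and 84 fell (0.228%), while 264 rose in d2 (0.717%) and 289 fell (0.785%). Either mutant called 660 genes, of which 107 were called in both, 107 in d0x alone and 446 in d2 alone. Since both comparisons use the same WT libraries, the overlap itself is no result. What differs is the size. Among the 107 genes called in both, the d2 fold lay further from WT than the d0x fold in 104, with a median of 0.77 in d2 and 0.44 in d0x, each taken in the direction of the call. The other 3 were NPTX1, B3GALT1 and NEDD9.

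A call in d0x alone did not mean a smaller change in d2. Of the 107 genes called in d0x alone, 62 lay further from WT in d2, in the same direction, and their medians in the direction of the call were 0.43 in d0x and 0.46 in d2. NUPR1, a stress-response gene, is one of them, at 1.25 in d0x and 2.03 in d2 in the authors' deposited table, with a d2 posterior probability of 0.948, just under the threshold. Genes called in d2 alone had a median of 0.67 in d2 and 0.28 in d0x, and 442 of 446 lay further from WT in d2. These groups were picked by the same folds that are compared, which favours the mutant that made the call.

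**Figure D1:**
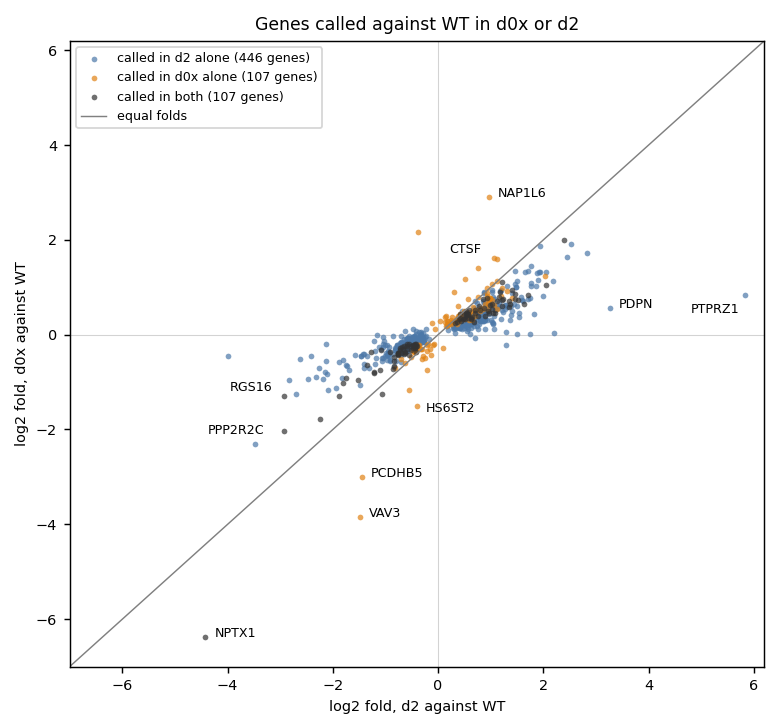
Log2 fold against WT in d2 (horizontal) and in d0x (vertical) of the 660 genes called in either, 1 point per gene, with a line where both are equal. Most points lie nearer to the horizontal axis than the line, that is, further from WT in d2; NPTX1, VAV3, PCDHB5 and HS6ST2 lie below the line on the lower left, further from WT in d0x. Both axes share the WT libraries, so the slope of the cloud is no result.

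Of the 660 called genes, 27 stood at least 1 log2 unit, which is 2-fold, higher in d0x than in d2 (0.0733% of genes measured) and 20 stood at least 1 lower (0.0543%). In 479 the difference was under 0.5. Next to the limit on the upper side lay KLF15 at 1.004, inside, and SLC27A2, outside at 0.999, and on the lower side PAPPA2 at -1.003, inside, and C1S, outside at -0.98. Of the 27 that stood higher in d0x, 19 had risen in WT against EV and none had fallen. Of the 20 that stood lower, 11 had fallen in WT against EV and 2 had risen, NPTX1 and HS6ST2.

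Genes that full-length MYC raises or lowers were then followed as groups, because EV and WT libraries pick them while the difference comes from d0x and d2. Of the 36421 genes with both folds and a WT against EV fold, 754 rose in WT against EV (2.07%) and 1118 fell (3.07%). The risen genes stood higher in d0x than in d2, with a median difference of 0.22 and 678 of 754 (89.9%) above 0. The fallen genes stood lower in d0x, with a median difference of -0.29 and 1029 of 1118 (92.0%) below 0. Among 14458 protein-coding genes not called in WT against EV the median difference was -0.05 and 41.3% were above 0. Side by side, the risen genes had medians of -0.23 in d0x and -0.45 in d2 against WT, and the fallen genes 0.30 in d0x and 0.62 in d2. In both mutants these medians lay on the EV side of WT, further in d2 than in d0x. Each of these 4 medians shares its WT libraries with the choice of the genes, which favours the EV side, while the difference does so only as far as the WT term is left in it.

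**Figure D2:**
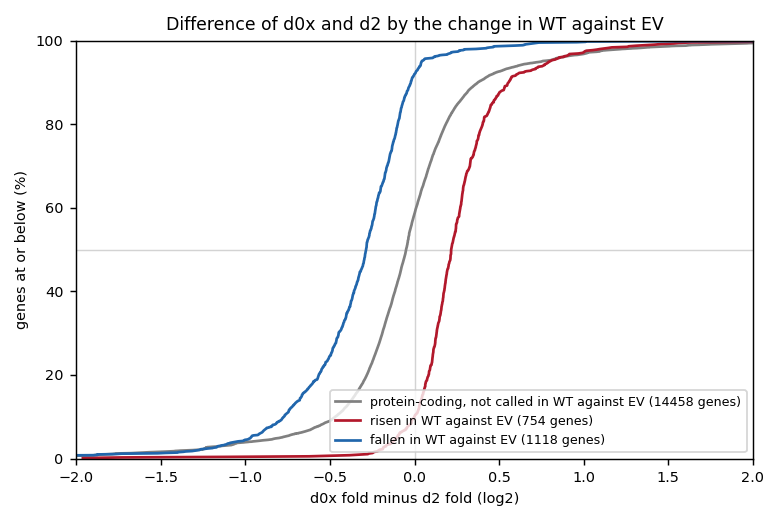
Cumulative share of genes (vertical, %) by the d0x fold minus the d2 fold (horizontal, log2 units, shown from -2 to 2) for genes risen in WT against EV, genes fallen in it and protein-coding genes not called in it. The curve of the 754 risen genes lies to the right, with a median of 0.22, and that of the 1118 fallen genes to the left, with a median of -0.29.

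The difference grew with the size of the WT change. For genes that rose by under 0.5 in WT against EV its median was 0.15, for those at 0.5 to 1 it was 0.25, and for the 142 genes at 1 or more it was 0.47. On the fallen side the medians were -0.13, -0.28 and -0.45, the last over 462 genes at -1 or below. Taken gene by gene as a share of the WT against EV fold, the difference had a median of 0.38 in risen and 0.33 in fallen genes, and 0.30 in protein-coding genes not called in WT against EV. The share was thus close to that of protein-coding genes not called, and above the 0.20 of all genes with both folds. Risen genes with a site had a median difference of 0.20 (510 genes) and those without one 0.27 (244 genes), and as a share of the WT fold 0.37 and 0.39. Fallen genes stood at -0.27 with a site (554 genes) and -0.32 without (564 genes). Over all genes the median was -0.04 with a site and -0.04 without. The authors mapped binding in 1 experiment, in cells with full-length MYC.

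Other pairs of mutants give a scale for these medians. Between the mutants labelled d3a and d3b the middle 90% of differences over 15988 protein-coding genes ran from -0.64 to 0.83, and between d0x and d2 from -0.79 to 0.69, so the spread over single genes was alike. The median of WT-risen genes was -0.22 for d3a minus d3b, the same size as for d0x minus d2 with the other sign, while that of WT-fallen genes was 0.06. For d4 minus d2 these medians were 0.11 and -0.32, and for d0x minus d4 they were 0.10 and 0.04. In fallen genes the medians of both pairs with d2 were wider than that of d0x minus d4. The differences among pairs were not tested.

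Gene lists are read against all protein-coding genes, of which 41.2% stood higher in d0x than in d2 and 58.8% lower. Of the same genes 0.694% rose and 0.465% fell in d0x, and 1.43% rose and 1.51% fell in d2. At these shares most lists would hold 1 called gene or none, so a count of 0 or 1 in a list is read as background, not as a result about its genes. The lists were chosen with earlier results of these data known, so higher counts may partly restate that choice. Genes of ribosome production stood higher in d0x than in d2, as did the genes risen in WT against EV as a group. In WT against EV the median log2 fold was 0.54 for ribosome biogenesis and 0.29 for ribosomal proteins. The ribosome biogenesis and nucleolus list has 48 measured genes, of which 8 fell in d2 and 1 in d0x, against 1.51% and 0.465% of all protein-coding genes, and none rose in either. All but 1 of the 48 stood higher in d0x, against 41.2% of all protein-coding genes, and the median difference was 0.30, with -0.15 in d0x and -0.42 in d2. NOP56, a core protein of the box C/D snoRNP that guides rRNA methylation, stood at -0.23 in d0x and fell by 0.64 in d2 in the authors' deposited table. The nucleolar protein NOP16 stood at -0.11 in d0x and at -0.52 in d2, and POLR1C, a subunit shared by RNA polymerases I and III, at -0.29 and -0.66 in the authors' deposited table. RRP1B, a nucleolar protein of rRNA processing, was the gene called in both, at -0.39 in d0x and -0.76 in d2 in the authors' deposited table. The authors also fitted the genes with a MYC binding site on their own, and in that bound-gene fit NOP16 lost its call, while NOP56 was called in both mutants.

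The ribosomal protein list has 35 genes and does not hold the whole family. All 35 stood higher in d0x than in d2, by 0.04 to 0.50, with a median of 0.29. Their median fold against WT was -0.05 in d0x and -0.37 in d2. Among them 4 fell in d2 and 0 in d0x, against 1.51% and 0.465% of all protein-coding genes. RPL14 stood at -0.19 in d0x and -0.65 in d2, RPS6 at -0.09 and -0.46, and RPL27A at -0.09 and -0.46 in the authors' deposited table. RPL4 followed at -0.13 and -0.43 in the authors' deposited table. RPS12, outside the list, also fell in d2, to -0.59 with -0.16 in d0x, in the authors' deposited table. Reads of these genes can be shared with their many pseudogenes, and the calls of RPL14, RPL27A and RPL4 ended in the bound-gene fit. Translation factors and tRNA synthetases, 32 genes, had a median difference of 0.02. The tryptophan enzyme WARS rose in d2 (0.58, against 0.28 in d0x) and the lysine enzyme KARS fell in d2 (-0.34, against -0.06) in the authors' deposited table, each called in d2 alone. CARS, for cysteine, rose in d0x to 0.43 and stood at 0.55 in d2, and MARS, for methionine, rose in d0x to 0.35 and stood at 0.36 in d2, in the authors' deposited table. WARS, KARS and MARS lost their calls in the bound-gene fit.

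Metabolic genes followed with smaller differences. In the nucleotide and polyamine list 20 of 26 genes stood higher in d0x, with a median difference of 0.16, and ODC1, the entry enzyme of polyamine synthesis, was its only called gene, at -0.18 in d0x and -0.55 in d2 in the authors' deposited table. The mitochondrial biogenesis list had 24 of 28 entries higher in d0x and a median difference of 0.23, with C10orf2, at 0.61, counted again as a repeated entry. Its 3 called genes fell in both mutants, where 0.465% of all protein-coding genes fell in d0x and 1.51% in d2. PPARGC1B, a coactivator of mitochondrial genes, stood at -0.64 in d0x and -1.36 in d2, and the import cochaperone GRPEL1 at -0.28 and -0.72 in the authors' deposited table. For C1QBP, a matrix protein, the authors' deposited table gave -0.19 and -0.59, and its d0x call ended in the bound-gene fit. GLDC, which cleaves glycine in mitochondria, stood 1.01 higher in d0x, at -0.46 against -1.47 in d2 in the authors' deposited table, while the one-carbon, serine and glutamine list around it had a median of -0.06. ALDH18A1, of proline synthesis, fell in d2 to -0.28 with -0.10 in d0x in the authors' deposited table, and lost that call in the bound-gene fit. HK2, which opens glycolysis, fell in d2 to -0.82 with -0.31 in d0x, where the bound-gene fit called it too, and the glucose transporter SLC2A3 rose in both, to 0.46 in d0x and 1.08 in d2, in the authors' deposited table. PGM1, of glycogen breakdown, rose in both, to 0.27 in d0x and 0.36 in d2 in the authors' deposited table, with neither call kept in the bound-gene fit, and the glycolysis list had a median difference of 0.08. Cholesterol synthesis genes stood higher in d0x in 18 of 21 cases (median 0.11), and FDFT1, the squalene synthase, fell in both, to -0.29 in d0x and -0.47 in d2 in the authors' deposited table.

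Cell cycle lists lay on both sides of 0. Of 32 genes of G1/S and DNA replication 2 fell in d0x and 4 in d2, against 0.465% and 1.51% of all protein-coding genes. The medians were -0.16 in d0x and -0.24 in d2, with a median difference of 0.06. CDC25A, the phosphatase that activates CDK2, stood at -0.31 in d0x and -0.81 in d2, and cyclin E1, CCNE1, fell in both, to -0.42 and -0.77, in the authors' deposited table. MCM3, of the replicative helicase, stood at -0.20 in d0x and -0.54 in d2, and MCM10 at -0.18 against -0.45 in the authors' deposited table. The d0x call of CCNE1 and the d2 call of MCM3 ended in the bound-gene fit. The 25 genes of G2/M and mitosis had a median difference of -0.09 and 0 calls, which is at the background. Among CDK inhibitors and growth arrest genes 20 of 22 stood lower in d0x (median -0.24). TXNIP, which restrains glucose uptake, rose in d2 to 0.80 with 0.29 in d0x, and KLF2 to 1.07 with 0.58, whereas the antiproliferative BTG2 fell in d2 to -0.78 with -0.31 in d0x, all in the authors' deposited table.

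Matrix and adhesion genes stood lower in d0x than in d2, as did the genes fallen in WT against EV as a group. In WT against EV the median log2 fold was -1.27 for collagens and -0.93 for matrix glycoproteins, crosslinkers and proteases. For integrins and adhesion it was -0.91. Whether these lists differ from other genes fallen in WT was not tested. The collagen list holds 21 genes and not the whole family. Of these 4 rose in d2 and 1 in d0x, against 1.43% and 0.694% of all protein-coding genes. In the list 19 stood lower in d0x, and the median difference was -0.41, with 0.51 in d0x and 0.94 in d2. COL14A1, outside the list, also rose in d2, to 1.22 with 0.52 in d0x, in the authors' deposited table. COL3A1, a fibrillar collagen, stood at 0.32 in d0x and 0.94 in d2, and COL5A2 at 0.32 and 0.62 in the authors' deposited table. COL4A1, of basement membranes, was the collagen of the list called in both, at 0.95 and 1.40 in the authors' deposited table. COL8A1 stood at 1.03 in d0x, not called, and 1.32 in d2, in the authors' deposited table. Among 39 matrix glycoproteins, crosslinkers and proteases 8 rose in d2 and 1 in d0x, against the same shares, and the median difference was -0.34. The laminin chain LAMA4 stood at 0.46 in d0x and 1.54 in d2, the integrin ligand NPNT at 1.63 and 2.45, the antiangiogenic THBS2 at 0.12 and 0.88, and fibronectin, FN1, at 1.10 and 1.77 in the authors' deposited table. None of those 4 was called in d0x. The integrin and adhesion list had the lowest median of all lists, -0.46, with 23 of 25 genes lower in d0x, though ITGB3 was its only called gene, at 0.68 in d0x and 1.15 in d2 in the authors' deposited table.

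Actin cytoskeleton and SRF/YAP target genes were closer together. Their median was 0.40 in d0x and 0.50 in d2, and the median difference -0.10, with 16 of 24 lower in d0x. The YAP targets CTGF and CYR61 rose in both, CTGF to 0.64 in d0x and 1.38 in d2, and CYR61 to 0.65 and 1.03, in the authors' deposited table. TPM1, a tropomyosin, and the kinase LATS2, a YAP inhibitor that is also its target, rose in d2 alone, to 0.51 and 0.51, with 0.30 and 0.33 in d0x, in the authors' deposited table, and neither was called in the bound-gene fit. Growth factors, receptors and their modulators had 26 of 33 genes lower in d0x (median -0.26). IGFBP5, which binds insulin-like growth factors, stood at 1.91 in d0x and 2.52 in d2, the activin subunit INHBA at 1.33 and 2.05, and PDGFA at 0.29 and 0.55 in the authors' deposited table, each called in d2 alone. In the bound-gene fit PDGFA lost that call, and IGFBP5 was called in both. ID1, an inhibitor of bHLH factors, was also lower in d0x, and called in d0x alone, having fallen by 0.28 in d0x while it stood at 0.10 in d2 in the authors' deposited table.

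Neural and cell identity genes were also set side by side. In the axon guidance and neural surface list 21 of 25 genes stood lower in d0x (median -0.37). It held 1 risen and 2 fallen genes in d0x, NPTX1 and PCDHB5 being the fallen, against 0.694% and 0.465% of all protein-coding genes. In d2 it held 2 risen, with PTPRZ1 among them, and 1 fallen, NPTX1, against 1.43% and 1.51%. NPTX1, PCDHB5 and PTPRZ1 are also among the genes with the widest differences. Since the list was chosen with earlier results of these data known, its counts may partly restate that choice. SLIT3, a guidance ligand, was among those risen in d2, at 0.75 in d0x and 1.71 in d2 in the authors' deposited table. It was not called in the bound-gene fit. Mesenchymal neuroblastoma markers stood lower in d0x in 24 of 25 cases (median -0.21), with medians of 0.00 in d0x and 0.27 in d2, but SNAI2, a repressor of epithelial genes, was their only called gene, at 0.32 in d0x and 1.36 in d2 in the authors' deposited table. Adrenergic markers had a median of 0.05 over 18 genes and Schwann and neural crest markers -0.28 over 14, with none called in either list. Of the epithelial markers 0 of 17 were called, with a median of -0.07. Their differences ran from -4.10 (KRT5, a keratin of basal epithelium) to 2.02 (GRHL2, a factor of epithelial genes), with 6 of 17 above 0. The d0x fold of KRT5 was shared to the last decimal with other genes, as happens where reads are few. The immune cell markers had 0 of 14 called and a median of -0.03. The histone and mitochondrial genes, listed with RNA quality in mind, had 0 of 18 called and a median of -0.02. Counts of 0 are at the background for lists of this size, and RNA quality itself was not tested.

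The stress and immune lists had medians from -0.27 to -0.04. ATF4 and unfolded protein response genes stood lower in d0x in 16 of 18 cases (median -0.23), with VLDLR at 0.63 in d0x and 1.27 in d2 in the authors' deposited table. Lysosome and autophagy genes had a median of -0.14. WIPI1, of autophagosome formation, rose in both, to 0.51 in d0x and 0.59 in d2, the protease CTSB rose in d2 alone (0.75, against 0.37 in d0x), and GLA, which degrades glycolipids, fell in d2 alone (-0.41, against -0.11) in the authors' deposited table. In the bound-gene fit the d2 calls of WIPI1 and CTSB ended and CTSB was called in d0x. The antigen presentation list had a median of -0.11, with TAP2, a peptide transporter, fallen in d2 to -0.55 and at -0.24 in d0x in the authors' deposited table. No gene was called in either mutant among 29 interferon response genes (median -0.14), 21 cytokine and NF-kB genes (-0.27) and 16 p53 targets (-0.04), which is at the background for lists of this size.

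Among partners of MYC the calls were at the background of 1.16% of protein-coding genes in d0x and 2.94% in d2. In the MYC, MAX and MLX network 0 of 14 genes were called, and the median difference was -0.03. MAX stood at -0.03 in d0x and -0.08 in d2, and MXD1, another partner of MAX, at 0.07 and 0.16 in the authors' deposited table. Of 39 genes of TRRAP, acetyltransferase complexes and other cofactors only RUVBL1, an ATPase of chromatin and snoRNP assembly complexes, was called, at -0.14 in d0x and -0.54 in d2 in the authors' deposited table, and not in the bound-gene fit. TRRAP itself stood at 0.06 in d0x and 0.10 in d2 in the authors' deposited table.

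Of the 24 named genes with the widest differences, 19 were called in d2 alone. Among those that stood higher in d0x, IKZF3, a lymphoid zinc-finger factor, was at -0.44 in d0x and -2.42 in d2, the phosphatase INPP5D at -0.71 and -2.27, the semaphorin SEMA3G at -0.56 and -2.13, and the taste receptor TAS2R5 at -0.20 and -2.13 in the authors' deposited table. RGS16, a GTPase activator for G proteins, fell in both, to -1.30 in d0x and -2.93 in d2, a difference of 1.63, in the authors' deposited table. NAP1L6, a pseudogene on the X chromosome, was the exception, since it rose in d0x alone, to 2.90 with 0.96 in d2 in the authors' deposited table.

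Another 6 of the 12 with the widest positive differences are olfactory receptor genes or pseudogenes that lie beside the beta-globin genes on chromosome 11, OR51B2, OR51M1, OR51Q1, OR51I2, OR51I1 and OR51A10P. Their folds in the authors' deposited table ran from -0.52 (OR51B2) to -1.25 (OR51I2) in d0x and from -2.15 (OR51A10P) to -2.83 (OR51M1) in d2. The stretch from HBE1 to OR52D1 was drawn around these 6 genes after their values were seen, so its counts partly restate that choice and support nothing. All 16 of its measured genes stood higher in d0x, by 0.72 to 2.36, and 10 of them fell in d2 and 0 in d0x, while 43.5% of all genes measured stood higher in d0x and 0.785% fell in d2. Neighbours that share reads or a transcript are not independent, and near copies make their counts uncertain.

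On the side that stood lower in d0x, d2 alone raised PTPRZ1, a receptor tyrosine phosphatase, to 5.82 with 0.84 in d0x, and the membrane glycoprotein PDPN to 3.27 with 0.56, in the authors' deposited table. The PTPRZ1 fold in d0x was shared with 34 other genes to the last decimal, as happens where reads are few. MN1, a transcriptional coregulator, stood at 0.01 in d0x and 1.75 in d2, KIF26B, a kinesin family member, at 0.02 and 1.49, KANK4 at -0.23 and 1.29, and FOXL2NB at 0.03 and 2.20 in the authors' deposited table. CYS1, a cilium protein, stood at 0.43 in d0x and 1.83 in d2, the neural adhesion molecule NRCAM at 0.81 and 1.99, and the noncoding LVCAT1 at 0.07 against 1.28 in the authors' deposited table. The d2 calls of MN1 and NRCAM ended in the bound-gene fit.

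A minority of called genes lay no further from WT in d2 than in d0x, in the direction of the call. They were 3 of 107 called in both, 45 of 107 called in d0x alone and 4 of 446 called in d2 alone. Most called genes were picked by their d2 fold, which favours d2. NPTX1, a secreted neuronal pentraxin, had the lowest fold among the called genes in each mutant, -6.38 in d0x and -4.42 in d2 in the authors' deposited table, a difference of -1.96. VAV3 fell in d0x to -3.86 with -1.48 in d2, and the protocadherin PCDHB5 to -3.003 with -1.45, in the authors' deposited table. VAV3 was not called in the bound-gene fit, where its difference was -1.92 instead of -2.37. HS6ST2, which sulfates heparan sulfate, fell in d0x to -1.51 and stood at -0.40 in d2, and HRK, a proapoptotic BCL2 relative, fell to -1.18 with -0.55, in the authors' deposited table. FOXR2, a forkhead factor, rose in d0x alone, to 1.42 with 0.76 in d2, as did the lysosomal protease CTSF, at 1.61 with 1.07, and FAM65B, at 1.59 with 1.13, in the authors' deposited table. Of the 660 called genes, 249 had risen in WT against EV, and 10 of these stood lower in d0x than in d2, while 276 had fallen, and 18 of these stood higher in d0x. B3GALT1, NEDD9, HS6ST2, HRK, FOXR2, MAX, MXD1, TRRAP, KRT5 and GRHL2 were named after their values were seen.

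**Figure D3:**
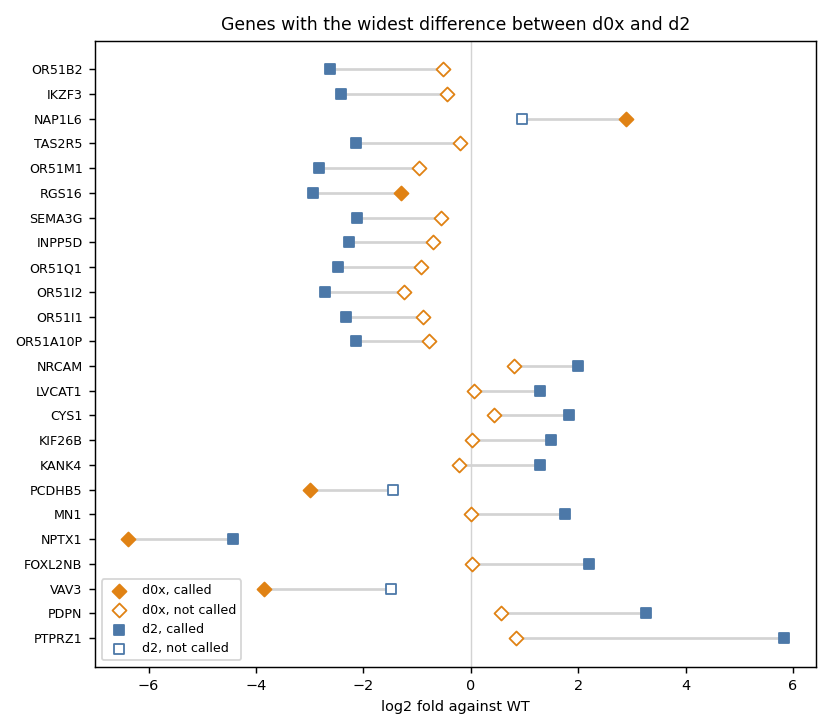
Log2 fold against WT (horizontal) in d0x (diamonds) and d2 (squares) of the 24 named genes with the widest differences, filled where the gene was called. Filled squares with open diamonds mark 19 genes called in d2 alone, while VAV3, PCDHB5 and NAP1L6 have a filled diamond and an open square, and NPTX1 and RGS16 were called in both.

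Of the 107 genes called in both, 56 rose and 51 fell. Most of those named for the largest folds in both fell, with clone names left out. The clone RP11-308N19.1, left out by its name, rose in both, to 2.00 in d0x and 2.40 in d2 in the authors' deposited table. PLCXD3 stood at -1.77 in d0x and -2.24 in d2, NKD1, an inhibitor of Wnt signalling, at -1.30 and -1.88, and PPP2R2C, a regulatory subunit of the phosphatase PP2A, at -2.02 and -2.93 in the authors' deposited table. B3GALT1, a galactosyltransferase named after its values were seen, stood at -1.24 and -1.06 in the authors' deposited table. TGFB2-AS1, antisense to the growth factor gene TGFB2, rose in both, to 1.10 in d0x and 1.21 in d2 in the authors' deposited table. NEDD9, a scaffold of focal adhesions also named after its values were seen, rose less, to 0.44 and 0.41 in the authors' deposited table. Whether counting used strand is not stated in the sources used here, so TGFB2-AS1 and TGFB2 may not be separated.

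The E-box CACGTG was looked for in the 250 bases before each gene's start (RefSeq, GRCh38.p14), where a promoter was given for 13660 of the 36819 genes. The letters, which read the same on both strands, were present in 8.07% of these and in 9.95% of promoters of genes with a MYC binding site. For genes fallen in d2 the share was 14.2% (29 of 204) and for those fallen in d0x 14.1% (9 of 64), while it was 2.69% (5 of 186) for genes risen in d2 and 4.49% (4 of 89) for genes risen in d0x. For genes risen in WT against EV it was 11.5% (60 of 520), and for those fallen 6.02% (48 of 798). The promoters picked by the planned rule were those of PPARGC1B, RPL14, NOP56 and NOP16, and none held the letters. Shown in their place are 4 windows chosen after their values were seen and required to hold CACGTG, with the E-box in capitals. They belong to the protein-coding genes with a MYC binding site that fell in d2 and stood highest in d0x against d2.
NKAIN1, chr1:31239888-31240137, minus strand: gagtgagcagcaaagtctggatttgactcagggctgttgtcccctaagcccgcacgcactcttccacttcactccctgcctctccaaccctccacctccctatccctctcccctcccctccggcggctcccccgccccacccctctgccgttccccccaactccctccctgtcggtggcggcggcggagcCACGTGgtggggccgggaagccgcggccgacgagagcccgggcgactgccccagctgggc
KLF15, chr3:126357409-126357658, minus strand: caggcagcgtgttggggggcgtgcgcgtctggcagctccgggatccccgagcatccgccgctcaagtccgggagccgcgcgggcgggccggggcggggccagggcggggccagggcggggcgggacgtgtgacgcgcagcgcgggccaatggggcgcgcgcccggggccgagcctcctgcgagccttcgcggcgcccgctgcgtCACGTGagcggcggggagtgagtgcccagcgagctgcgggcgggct
ACTN2, chr1:236686249-236686498, plus strand: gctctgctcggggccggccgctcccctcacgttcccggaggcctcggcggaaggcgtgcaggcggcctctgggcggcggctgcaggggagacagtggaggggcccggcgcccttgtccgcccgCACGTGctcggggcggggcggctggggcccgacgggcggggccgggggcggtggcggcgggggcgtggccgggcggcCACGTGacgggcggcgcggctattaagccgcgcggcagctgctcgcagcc
MARS2, chr2:197705119-197705368, plus strand: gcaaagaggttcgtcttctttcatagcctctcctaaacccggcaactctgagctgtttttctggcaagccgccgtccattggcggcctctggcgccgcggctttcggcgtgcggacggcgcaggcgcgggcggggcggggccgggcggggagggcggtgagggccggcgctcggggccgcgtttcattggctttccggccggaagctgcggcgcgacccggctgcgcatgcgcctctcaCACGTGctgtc

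ACTN2, a sarcomeric actinin, has 2 E-boxes in this window and stood at -0.91 in d0x and -1.75 in d2 in the authors' deposited table. MARS2, the mitochondrial methionyl-tRNA synthetase, stood at -0.36 and -0.91 in the same order in the authors' deposited table, and both genes were called in both mutants, with neither d0x call kept in the bound-gene fit. KLF15, a zinc-finger factor of metabolic genes, stood at -0.42 in d0x and -1.42 in d2, and NKAIN1, which binds a subunit of the sodium pump, at -0.45 and -1.47 in the authors' deposited table, both called in d2 alone. A match shows only that the letters are there.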

How the data were processed

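RNA-seq libraries of TET21 cells, 4 per group, had been compared by the authors, who deposited a table of all 58317 genes and one of the 9368 genes with a MYC binding site. Both tables give, per the file headers, a log2 posterior fold change from a Bayesian model for every comparison and the other value, a posterior probability from 0 to 1, with none for genes without reads. A further deposited column, a score, counts the comparisons called per gene, and it was not used. DESeq, R 3.3.1, edgeR 3.16.5, STAR 2.5.2a and GRCh37 are listed in the submitters' processing notes, with no role given, and library scaling is not given in the sources used here. Depth per library is unknown here, so no interval is printed.

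The d0x fold minus the d2 fold was computed per gene in Python 3.11.15 with pandas 2.3.3 and checked on simulated data. Gene types came from GENCODE 29 by symbol, with 12023 genes unmatched. Members, tests and the 31 lists were chosen with earlier results of these data known. Named were MYC and MYCN, the 12 called genes with the widest difference in each direction, the 6 called in both with the largest smaller fold, the 5 called in each mutant alone with the largest fold, and up to 4 called members per list, leaving out clone names and genes without values in all 7 comparisons. No test of d0x against d2 on counts, as planned if counts were given, was run. Alternatives were other thresholds and gene sets, centring, and the authors' separate fit.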

Additional observations from a re-analysis of the deposited data

How the results depend on the processing

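No paired analysis was possible because the deposited tables hold comparisons of groups and no values per library. For the same reason no library could be left out in turn. Counts of called genes higher and lower in d0x were 27 and 20 at a difference of 1. With a difference of at least 0.5 they were 90 and 91, with at least 2 they were 3 and 4, and in the authors' separate fit of bound genes, where fewer genes were tested, 3 and 4. Posterior probabilities of 0.90 and 0.99 gave 33 and 26, and 20 and 15. Centring on the median protein-coding gene, which shifts differences by 0.05, gave 29 and 17. The median difference of genes risen in WT against EV ranged from 0.18 to 0.27 and that of fallen genes from -0.29 to -0.23 over all alternatives. Lists with a median of at least 0.2 numbered 3 and those at or below -0.2 numbered 10, and 4 and 7 after centring. No list median or named gene with a difference of at least 0.1 changed sign in any alternative that was run. In the separate fit the collagen list stood at -0.64, the Schwann list at -0.02 and the one-carbon list at -0.19, since only bound members were tested, and 11 of 18 named d0x calls and 27 of 45 named d2 calls of bound genes were kept. Leaving out genes whose fold more than 2 genes share, 9936 genes and 16 of those called, was chosen after seeing the data and gave 26 and 19. Without counts, the precision of a single difference is unknown.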
